A study of Mus musculus with 7 samples.

Results

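Catecholamines reach the heart muscle cell through adrenergic receptors. The beta receptors act through the stimulatory G protein on adenylyl cyclases, which make the messenger cAMP, and cAMP activates protein kinase A, whose targets set the strength and speed of the beat. Phosphodiesterases break cAMP down, receptor kinases switch off active receptors, and the alpha1 receptors act on a separate branch through phospholipase C. The genes described here are 3 adrenergic receptors (*Adrb1*, *Adra1a* and *Adra1b*), 2 adenylyl cyclases (*Adcy5* and *Adcy6*), the receptor kinase *Grk5*, the phosphodiesterases *Pde3a* and *Pde4d*, and *Prkaca*, the alpha catalytic subunit of protein kinase A. They were listed by name and found through their Ensembl identifiers, and all 9 were present among the 20927 genes of the count table and passed the filter on low counts.

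RNA from the left ventricle of 3 WT and 4 homozygous A178D mice was sequenced, with 1 library per heart. A178D mice carry an alanine to aspartate change in titin, the giant spring protein of the sarcomere, on both copies of *Ttn*, and WT mice were littermates without it. The allele was made by CRISPR editing of C57BL/6N embryonic stem cells, also holds a silent change that adds a DdeI site, and was bred onto C57BL/6J, the strain the labels give for every mouse. The age and sex of these mice are not given in the sources used here. The WT hearts are numbered 1, 3 and 4, and the A178D hearts 1 to 4. The WT libraries held between 41102868 and 54245530 counts, and the A178D libraries between 33080675 and 52345529. Since the allele is a point change that leaves the gene transcribed, *Ttn* counts do not check the genotype labels. Levels are given in CPM, which are counts brought to 1 common library size with TMM factors. *Ttn* stood at 6659 ± 521 CPM (mean ± SD, n = 3 hearts) in WT mice and 5528 ± 1072 CPM (n = 4 hearts) in A178D mice, and was not called (edgeR's adjusted p = 0.287). On the log2 scale, A178D over WT throughout, its fold change was -0.27, -0.15 without A178D heart 4 and -0.13 with the trend of each library with transcript length and GC content removed.

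Before the comparison, 2 libraries stood apart. Genes were split into 5 classes of about equal size by the length of their longest transcript, and each library was set against the mean of all 7. In A178D heart 4 the median deviation was 0.168 on the log2 scale for the class of shortest transcripts and -0.189 for the longest. WT heart 1 leaned the other way, with -0.108 for the shortest and 0.103 for the longest. In the other 5 libraries the medians of the classes lay between -0.0224 and 0.0381. Of the 9 genes, *Pde3a* and *Adra1a* were lowest in A178D heart 4 by a wide margin, and their values are given with and without it. Myocyte markers were high in every heart (the 8 genes summed to 90869 to 99293 CPM), and of 4 atrial markers *Sln* and *Myl7* were under 1 CPM in every heart, *Myl4* was at 1.85 to 4.02 CPM and *Nppa* at 109 to 588 CPM. Each of 6 fat markers was under 1 CPM in every heart, and the 5 of skeletal muscle reached at most 2.13 CPM (*Tnni2*).

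Of the 9 genes, the test called 1. *Adcy6*, which encodes 1 of the main adenylyl cyclases of the ventricle, fell by 22.9% in the fitted mean and was lower in all 4 A178D hearts than in any WT heart. The 3 receptors, *Adcy5*, *Grk5*, the phosphodiesterases *Pde3a* and *Pde4d*, and *Prkaca* did not pass, and their groups overlapped. Over all 13894 genes tested, edgeR's quasi-likelihood test with a Benjamini-Hochberg adjusted p under 0.05 called 2.35% in either direction, 1.04% higher and 1.31% lower in A178D. An unadjusted p under 0.05 from edgeR was reached by 16.7% of all genes tested and by 2 of the 9 (22.2%), *Adcy6* and *Adra1b* (0.0128 for the latter). The hearts of the genotypes did not overlap in 16.1% of all genes tested and in 1 of the 9. DESeq2's test called 5.06% of the genes it gave an adjusted p, and among the 9 also *Adcy6* alone.

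*Adrb1* encodes the beta1 receptor, the main adrenergic receptor through which the heartbeat is driven. Its levels were 20.5, 19.9 and 20.2 CPM in WT hearts 1, 3 and 4, and 18.3, 24.2, 24.3 and 19.5 CPM in A178D hearts 1 to 4. A178D hearts 2 and 3 were above the WT hearts and A178D hearts 1 and 4 below them, so that the spread was wider in A178D (SD 3.15) than in WT (SD 0.334). The log2 fold change was 0.10, its standard error 0.11 and its 95% interval from -0.14 to 0.33 (edgeR's adjusted p = 0.700). It lay between 0.04 and 0.17 in the fits without 1 heart. With the number of the heart as a block it was 0.03, and 0.0015 with the length and GC trends also removed.

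The alpha1 receptors raise calcium and activate protein kinase C through the G protein Gq. *Adra1b*, for the alpha1B receptor, stood at 45.4, 30.8 and 41.7 CPM in the WT hearts and at 45.3, 53.0, 49.8 and 48.6 CPM in A178D. WT heart 3 was the lowest of all, and WT heart 1 and A178D heart 1 met in the middle, so the groups touched. This gave a log2 fold change of 0.32 (standard error 0.11, 95% interval 0.08 to 0.57), and edgeR's adjusted p was 0.168. Without WT heart 3 the log2 fold change was 0.18, and without WT heart 1 it was 0.45. *Adra1a*, for the alpha1A receptor, stood at 30.5, 33.3 and 40.2 CPM in WT and at 30.4, 34.0, 28.3 and 19.8 CPM in A178D. The lowest value belongs to A178D heart 4, and the other hearts overlapped. Its log2 fold change was -0.30 (standard error 0.15, edgeR's adjusted p = 0.333), -0.16 without A178D heart 4, and -0.28 with the length and GC trends removed. In the count table *Adra1b* and *Adra1a* therefore leaned in opposite directions, neither past the threshold. With WT heart 1 and A178D heart 4 both left out, a choice made after seeing the data, *Adra1b* reached a log2 fold change of 0.45 and edgeR's adjusted p of 0.0308.

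*Adcy6* lies on the reverse strand of chromosome 15 from 98589973 to 98610076 (GRCm38, ENSMUSG00000022994). Its levels were 326, 381 and 342 CPM in the WT hearts and 244, 283, 275 and 277 CPM in the A178D hearts. The highest A178D heart lay below the lowest WT heart, and WT heart 3 stood highest of all. The WT mean was 350.0 ± 28.2 CPM (SD, n = 3) and the A178D mean 270.0 ± 17.3 CPM (SD, n = 4). This is a log2 fold change of -0.37 (standard error 0.08, 95% interval -0.54 to -0.21). EdgeR's adjusted p was 0.0208 and DESeq2's was 0.000361, and an exact two-sided permutation test over the 7 hearts gave the smallest p that 3 against 4 allows, 0.0286. The fall is that of the tissue as a whole, in which fewer cells of a type and less RNA per cell cannot be told apart. The call rested on single hearts: with 1 heart left out, edgeR's adjusted p was 0.147 without WT heart 3, 0.0772 without WT heart 4, 0.0840 without A178D heart 1 and 0.0548 without A178D heart 3. It was 0.0123, 0.0390 and 0.0212 without WT heart 1, A178D heart 2 and A178D heart 4. The log2 fold change in these 7 fits lay between -0.42 and -0.31. With the length and GC trends removed it was -0.32 (edgeR's adjusted p = 0.0244). A noncoding gene on the other strand, *Gm29331*, covers 605 exonic bases, or 8.92% of the exons of *Adcy6*, and the sources used here do not say whether counting used strand. The same limit holds for other genes named below, with larger overlaps for *Pln* (59.6% with *Gm47644*), *Adcy3* (22.1% with *Cenpo*) and *Gnas* (13.1% with *Gm20721*).

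*Adcy5*, the closest relative of *Adcy6* and like it held back by calcium and by the inhibitory G protein, gave 106.4, 106.3 and 94.5 CPM in WT and 97.9, 104.2, 111 and 105.4 CPM in A178D. The hearts were mixed, and the log2 fold change of 0.03 had a 95% interval from -0.12 to 0.19 (edgeR's adjusted p = 0.869). With the length and GC trends removed it was 0.11 (edgeR's adjusted p = 0.286). The difference between the changes of the 2 cyclases was not tested. On the scale of CPM per kilobase of exon, *Adcy6* made up 78.3 ± 1.60% of the sum of the pair in the 3 WT hearts and 73.2 ± 0.869% (both SD) in the 4 A178D hearts. Every A178D heart had a smaller share than every WT heart. Since *Adcy5* was mixed, this largely repeats the lower CPM of *Adcy6* and is no test of a difference between the cyclases.

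*Grk5* encodes a kinase that phosphorylates active receptors and uncouples them from their G protein. It stood at 39.5, 34.4 and 36.3 CPM in WT and 35.1, 38.4, 38.0 and 31.4 CPM in A178D. These values interleave, with a log2 fold change of -0.04 and a 95% interval from -0.23 to 0.15 (edgeR's adjusted p = 0.874). *Prkaca* is the main source of protein kinase A activity in the myocyte. Its levels were 206, 184.9 and 186.2 CPM in WT and 179, 199.8, 198.3 and 182.1 CPM in A178D, again mixed. For *Prkaca* the log2 fold change was -0.02 (95% interval -0.17 to 0.13, edgeR's adjusted p = 0.924).

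*Pde3a* encodes a phosphodiesterase that is inhibited by cGMP, and *Pde4d* one that is specific for cAMP and sits near the beta receptors and the calcium release channel. *Pde3a* stood at 69.5, 63.9 and 60.9 CPM in WT and 54.9, 65.9, 64.5 and 37.8 CPM in A178D hearts. A178D heart 4 was far below the rest, and the other 6 hearts overlapped. The log2 fold change of *Pde3a* was -0.21 (standard error 0.14, edgeR's adjusted p = 0.496) with that heart and -0.07 without it, and -0.09 with the length and GC trends removed. *Pde4d* stood at 56.6, 46.5 and 50.2 CPM in WT and 50.04, 47.7, 49.7 and 42.5 CPM in A178D. WT heart 1 was highest and A178D heart 4 lowest. The groups differed by a log2 fold change of -0.11 (95% interval -0.29 to 0.08, edgeR's adjusted p = 0.577). It was -0.09 with the length and GC trends removed and 0.02 without both of these hearts. The exact permutation test gave 0.0571 for *Adra1b*, 0.257 for *Adra1a*, and between 0.400 and 0.771 for the other 6 genes outside *Adcy6*.

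**Figure D1:**
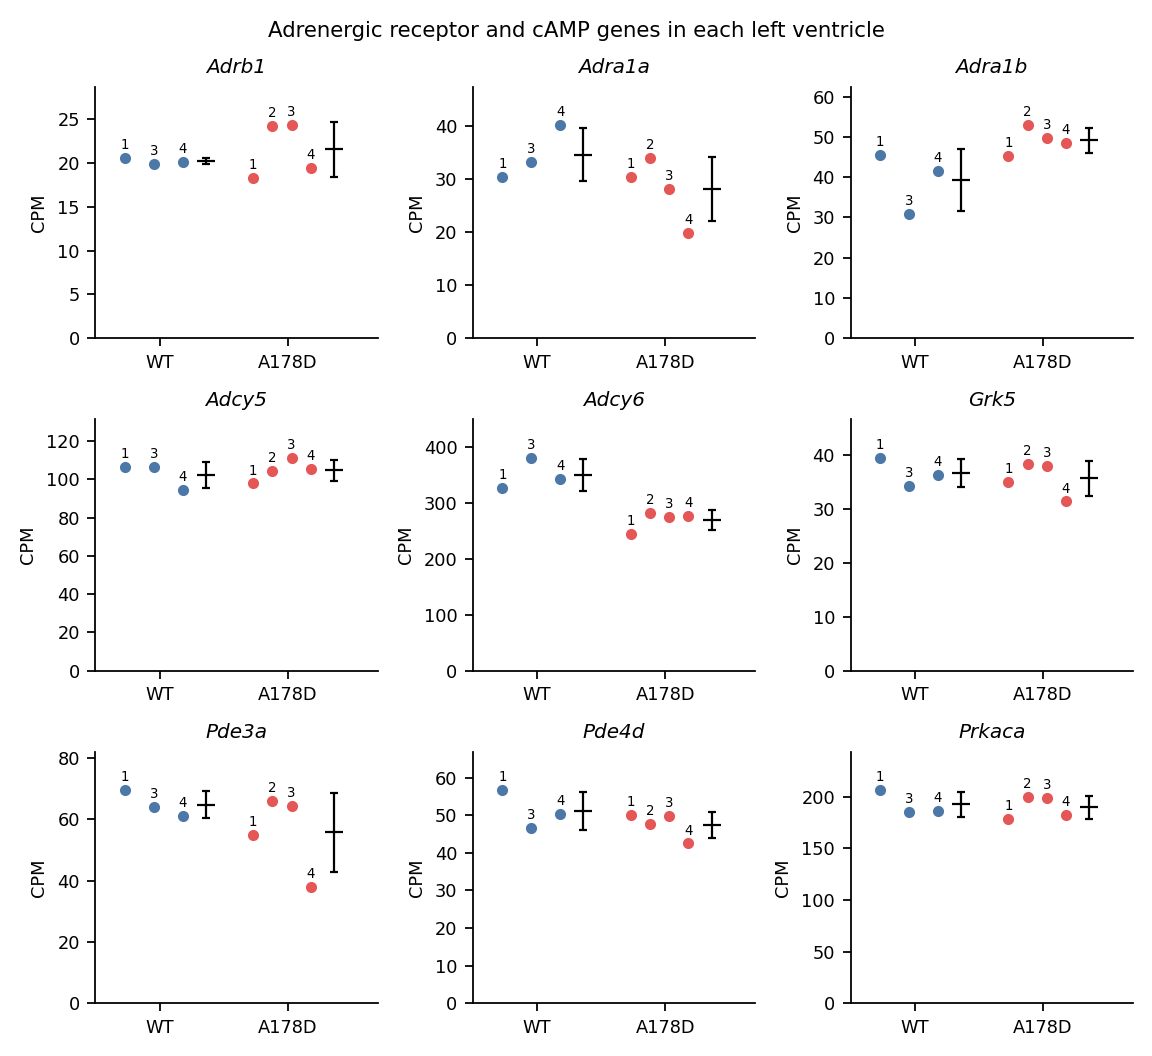
Level of each of the 9 genes in CPM (vertical axes, from 0) in the 3 WT and 4 A178D left ventricles; each point is 1 heart with its number, and the bars give the mean and SD of the group. The A178D points lie below all WT points for *Adcy6* (244 to 283 against 326 to 381 CPM), and the groups overlap for the other 8 genes.

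Levels of different pathway genes were compared only per length, as CPM per kilobase of exon over all 7 hearts. *Prkaca* was highest (76.7, range 71.8 to 82.9), followed by *Adcy6* (44.9, range 36.0 to 56.2). Then came *Adcy5* (14.4, range 13.2 to 15.5) and *Adra1b* (13.3, range 9.11 to 15.7), whose ranges overlapped. *Adrb1* (6.20), *Grk5* (5.13), *Pde3a* (4.68), *Pde4d* (4.08) and *Adra1a* (3.54) followed, and each of these overlapped the next over the hearts. The lower end of this order depends on which exons are counted: with the longest transcript in place of all exons, *Pde4d* (11.7) and *Adra1a* (7.22) moved to ranks 5 and 6. The first 4 kept their ranks.

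Among 8 adrenergic receptor genes, *Adra1b* held 47.7 ± 4.72% of the summed per-length level in WT and 54.0 ± 0.752% in A178D hearts. These shares did not overlap, with 51.7% in WT heart 1 nearest to 53.5% in A178D heart 3, while the CPM of *Adra1b* did. In CPM, 16.1% of all genes tested do not overlap. *Adrb1* held 24.8 ± 2.27% and 23.6 ± 2.05%, and *Adra1a* 16.5 ± 2.65% and 11.9 ± 2.37%. With the longest transcript in place of all exons, *Adra1a* held 23.7% over all 7 hearts (13.9% with all exons), *Adrb1* 23.3% (24.1%) and *Adra1b* 43.98% (51.3%). The genotypes were not compared with longest transcripts. Shares of 1 sum are not independent of each other, and no test was made of them. The remaining alpha1 receptor, *Adra1d*, stood at 3.10 to 4.49 CPM in WT and 3.61 to 5.93 CPM in A178D. *Adrb3* had 4 to 10 counts in each WT library and 0 to 3 in each A178D library, and *Adra2a* 0 to 4 counts in any library, and neither was tested. At this depth no difference in them can be judged. *Adra2b*, also tested, held 1.79 ± 0.567% of the summed per-length level in WT and 0.960 ± 0.374% in A178D, and *Adra2c* 0.950 ± 0.552% and 0.752 ± 0.417%, both with overlap. Of the 6 adrenergic receptors tested, edgeR and DESeq2 called 0, with an unadjusted p under 0.05 in 2 (33.3%, against 16.7% of all genes tested), 1 of them *Adra1b*. Their log2 fold changes lay between -0.73 and 0.32, with a median of -0.05 (-0.13 without WT heart 1).

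**Figure D2:**
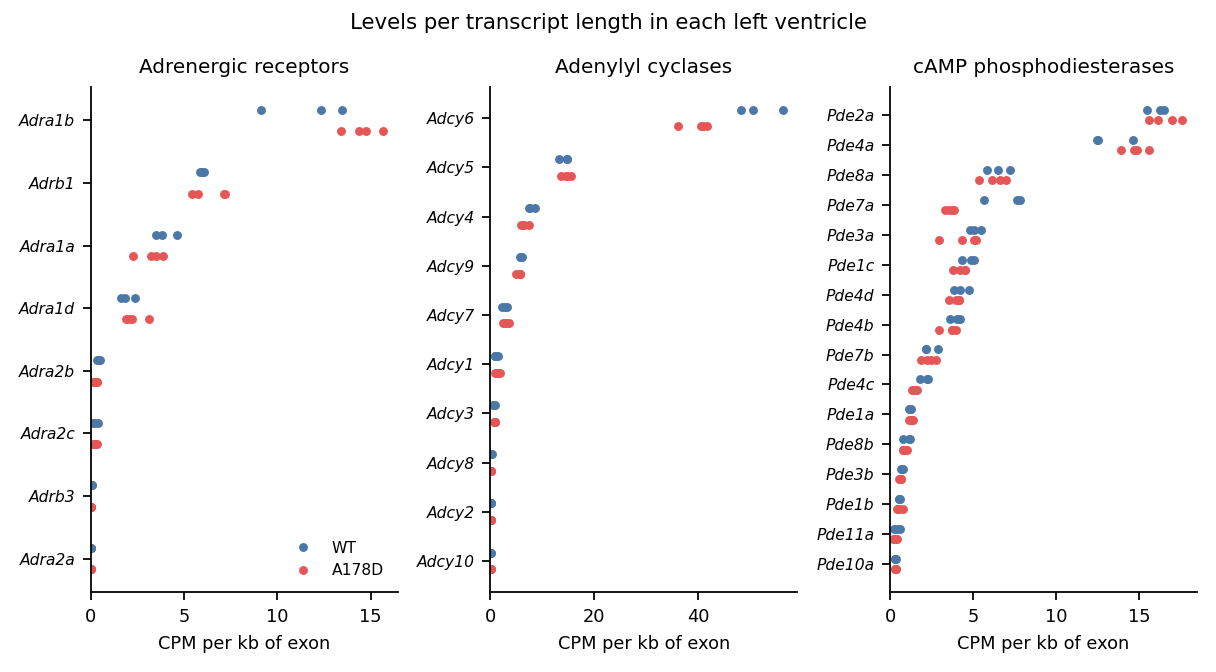
Level in CPM per kilobase of exon (horizontal axes, from 0) of the adrenergic receptors, the adenylyl cyclases and the phosphodiesterases that act on cAMP; each point is 1 WT or A178D heart, and genes are sorted by their mean. *Adra1b* leads the receptors at 13.3, *Adcy6* the cyclases at 44.9 and *Pde2a* the phosphodiesterases at 16.3 over all hearts.

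The pathway was then followed over 156 genes in 13 lists, of which 147 could be tested. Of these, 4 were called higher in A178D (*Akap1*, *Popdc3*, *Mybpc3* and *Hspb6*) and 4 lower (*Adcy6*, *Pde7a*, *Pde4c* and *Itpr2*). That is 5.44% of them, against 2.35% of all genes tested, and the genotypes did not overlap in 29 (19.7%), against 16.1%. The median log2 fold change was -0.05, against 0.0023 over all genes. With DESeq2, 6 were higher and 12 lower, 12.7% of those it gave an adjusted p, against 5.06% of all genes. An unadjusted p under 0.05 from edgeR was found in 23.1%, against 16.7%. These shares were not tested against those of other genes. The lists were chosen with earlier results of these data known, and some genes were taken out after the results were seen. The medians of the 13 lists lay between -0.14 and 0.07, between -0.16 and 0.08 without WT heart 1, and between -0.12 and 0.04 without A178D heart 4.

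The lowest adjusted p in the pathway was that of *Pde7a*, a phosphodiesterase specific for cAMP. Its levels were 43.8, 59.3 and 60.5 CPM in the WT hearts and 30.01, 28.9, 25.7 and 27.7 CPM in the A178D hearts. The A178D hearts lay close together, well under the lowest WT heart. It fell by 48.5% (log2 fold change -0.96, standard error 0.11, 95% interval -1.19 to -0.73), and edgeR's adjusted p was 0.000651. It was called in all 7 fits that left out 1 heart, with edgeR's adjusted p at 0.0109 or below and a log2 fold change between -1.09 and -0.88. Among the 16 cAMP phosphodiesterases *Pde7a* held 10.1 ± 1.76% of the summed per-length level in WT and 5.58 ± 0.536% in A178D hearts.

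*Pde4c*, another phosphodiesterase specific for cAMP, fell from 11.8 ± 1.53 CPM (SD, n = 3) to 8.30 ± 0.827 CPM (SD, n = 4), with a log2 fold change of -0.51 and edgeR's adjusted p of 0.0467. It passed in only 1 of the 7 fits without 1 heart, the fit without A178D heart 4 (0.0452), and edgeR's adjusted p was between 0.0558 and 0.215 in the 6 fits without each other heart. With the number of the heart as a block it was 0.129. Another entry of the table holds the same counts as *Pde4c*, so the reads may be shared. The median log2 fold change of the 16 phosphodiesterases was -0.12 (-0.06 without A178D heart 4, -0.07 with the length and GC trends removed), with 2 called lower and 0 higher by edgeR and by DESeq2. That is 12.5% by each tool, against 2.35% of all genes by edgeR and 5.06% by DESeq2. An unadjusted p under 0.05 was found in 12.5%, against 16.7% of all genes. The 2 most abundant per length, *Pde2a* (16.3 CPM per kilobase) and *Pde4a* (14.1), had log2 fold changes of 0.04 and 0.16 and did not pass, and the counts of *Pde2a* are also those of another entry. *Pde3b* (-0.20) and *Pde4b* (-0.13) were not called either.

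The other 6 cyclases that could be tested were not called. *Adcy4*, found in vessels, stood at 34.8 to 39.7 CPM in WT and 27.2 to 34.8 CPM in A178D (log2 fold change -0.27, edgeR's adjusted p = 0.167), and was called without A178D heart 4 (0.0449). *Adcy9* (-0.09), *Adcy7* (0.15), *Adcy3* (0.18), *Adcy1* (0.28) and the scarce *Adcy8* (-0.74) made up the rest. Their values moved in the fits without 1 heart, *Adcy9* to -0.03 without A178D heart 4, *Adcy7* between 0.04 (without WT heart 4) and 0.28 (without WT heart 1), *Adcy3* between 0.03 (without WT heart 4) and 0.39 (without WT heart 3), *Adcy1* between 0.07 (without A178D heart 4) and 0.51 (without WT heart 1) and *Adcy8* to -0.30 without WT heart 1. The list had 1 of 8 genes called, *Adcy6* (12.5%, against 2.35% of all genes), and an unadjusted p under 0.05 in 3 (37.5%, against 16.7%). Its median log2 fold change was -0.03, -0.0021 without A178D heart 4 and 0.03 with the length and GC trends removed.

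Among receptors that couple to the cyclase other than the adrenergic ones, edgeR called 0 of 16 (median -0.03, and -0.06 without WT heart 1), with an unadjusted p under 0.05 in 3 (18.8%, against 16.7% of all genes). DESeq2 called 1, *Calcrl*, the receptor chain for calcitonin gene-related peptide and adrenomedullin, at 37.2 ± 3.35 CPM (SD, n = 3) in WT mice and 29.6 ± 3.08 CPM (SD, n = 4) in A178D mice. *S1pr1*, a receptor of endothelial cells, was the most abundant per length (23.4 CPM per kilobase, log2 fold change -0.15). This fold change was -0.30 without WT heart 1 and -0.04 without WT heart 3. Of the 18 G proteins and their regulators edgeR called 0, with an unadjusted p under 0.05 in 3 (also 16.7%) and a median of -0.07. *Gnas*, which encodes the stimulatory subunit that drives the cyclases, was the most abundant of them (97.8 CPM per kilobase, log2 fold change -0.08, edgeR's adjusted p = 0.563). DESeq2 called *Gnao1* (0.31) and *Gng5* (0.24) higher and *Rgs4* (-0.38), a brake on G protein signals, lower. The 9 receptor kinases and arrestins gave 0 calls by either tool, 0 with an unadjusted p under 0.05 (16.7% of all genes), and a median of -0.04 (-0.07 without A178D heart 4). *Grk2*, the most abundant per length (19.0 CPM per kilobase), had a log2 fold change of 0.02, and *Grk3*, *Grk6* and the scarce *Grk4* and *Grk1* had -0.15, -0.04, -0.28 and -0.38. Without WT heart 4, *Grk3* was at -0.07, *Grk6* at -0.10 and *Grk1* at -0.56. *Grk6* was at -0.00071 without WT heart 3, and *Grk1* at -0.13 without A178D heart 2. *Grk4* was at -0.54 without A178D heart 1 and -0.16 without A178D heart 4.

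Protein kinase A is held inactive by regulatory subunits until cAMP binds them. EdgeR and DESeq2 called 0 of its 9 subunits and inhibitors, with an unadjusted p under 0.05 in 1 (11.1%, against 16.7% of all genes) and a median of -0.04 (-0.03 without A178D heart 4). *Prkar1a*, the most abundant regulatory subunit (129.4 CPM per kilobase), had a log2 fold change of 0.10, and *Prkacb*, the beta catalytic subunit, -0.08. That of *Prkar1a* was 0.19 without WT heart 1 and 0.02 without WT heart 4. A-kinase anchoring proteins tie the kinase to a place in the cell. Of 13, edgeR called 1 (7.69%, against 2.35% of all genes), *Akap1*, which holds the kinase at the outer mitochondrial membrane. It stood at 201, 169 and 173 CPM in WT and 254, 228, 236 and 226 CPM in A178D, every A178D heart above every WT heart. Its log2 fold change was 0.38 (standard error 0.08, edgeR's adjusted p = 0.0207). EdgeR's adjusted p was 0.141 without WT heart 3, 0.106 without WT heart 4, 0.0840 without A178D heart 1 and 0.0565 without A178D heart 3. An unadjusted p under 0.05 was found in 5 of the 13 (38.5%, against 16.7% of all genes). The genotypes did not overlap in 5 (38.5%, against 16.1%), 1 higher and 4 lower in A178D. The median of the 13 was -0.14, and 11 had values below 0. Without WT heart 1 the median was -0.05, and with the length and GC trends removed -0.07. DESeq2 also called *Akap8* (-0.25) and *Pde4dip* (-0.24), the most abundant of the list per length (195.2 CPM per kilobase), lower, the latter at -0.15 with these trends removed.

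Other proteins that bind cAMP include the exchange factors for Rap, the Popeye proteins and the pacemaker channels. Of these 8 genes, edgeR called 1 (12.5%, against 2.35% of all genes). An unadjusted p under 0.05 was found in 2 (25.0%, against 16.7%), and the genotypes did not overlap in 2 (25.0%, against 16.1%). The called gene was *Popdc3*, a Popeye gene, at 21.3 ± 2.14 CPM (SD, n = 3) in WT mice and 27.8 ± 1.95 CPM (SD, n = 4) in A178D mice. Its log2 fold change was 0.39 and edgeR's adjusted p 0.0489, and it was not called in any of the 7 fits without 1 heart, where edgeR's adjusted p lay between 0.0627 and 0.169, or with the number of the heart as a block (0.120). *Popdc2*, the most abundant per length (315.9 CPM per kilobase), was higher in every A178D than in every WT heart but was not called (0.18, edgeR's adjusted p = 0.214). The median of the list was 0.07, and 0.04 without A178D heart 4.

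Of 12 substrates of protein kinase A in myocytes, edgeR called 2 (16.7%, against 2.35% of all genes tested), both higher, and an unadjusted p under 0.05 was found in 4 (33.3%, against 16.7%). *Mybpc3* encodes cardiac myosin-binding protein C, a thick filament protein whose phosphorylation speeds the cross-bridge cycle. It stood at 5872, 5707 and 5239 CPM in WT and 6952, 6832, 6677 and 7209 CPM in A178D hearts, without overlap. Fitted over the hearts, the log2 fold change was 0.30 (standard error 0.06, edgeR's adjusted p = 0.0230). EdgeR's adjusted p was 0.111 without WT heart 3, 0.120 without WT heart 4, 0.0872 without A178D heart 1, 0.0510 without A178D heart 3 and 0.0574 with the number of the heart as a block. *Hspb6*, a small heat shock protein, rose from 1069 ± 90.5 to 1324 ± 19.7 CPM (SD, n = 3 and n = 4; log2 fold change 0.31, edgeR's adjusted p = 0.0328). It was called without WT heart 1 (0.01001) and without A178D heart 4 (0.0333). Leaving out WT heart 3, WT heart 4 or A178D heart 1, 2 or 3 gave adjusted p of 0.192, 0.123, 0.0986, 0.0690 and 0.0889 from edgeR, removing the length and GC trends gave 0.0646, and the block gave 0.0755. *Pln*, for phospholamban, the brake on the calcium pump, was the most abundant of the substrates (3102 CPM per kilobase) and did not pass (-0.03, edgeR's adjusted p = 0.880). *Cacna1c*, the pore of the L-type calcium channel, was lower by DESeq2 alone (-0.29, and -0.16 with the length and GC trends removed). The median of the list was -0.03, -0.08 without WT heart 1, -0.09 without A178D heart 4 and -0.10 with these trends removed.

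Of 7 tested genes for catecholamine synthesis, uptake and breakdown, edgeR called 0, with an unadjusted p under 0.05 in 2 (28.6%, against 16.7% of all genes) and a median of -0.05 (-0.12 without WT heart 1). The genotypes did not overlap in 3 (42.9%, against 16.1%), 2 higher and 1 lower in A178D. DESeq2 called 1 of these genes (14.3%, against 5.06%). *Maob*, a monoamine oxidase and the most abundant of them per length (31.3 CPM per kilobase), was lower by DESeq2 (-0.34, edgeR's adjusted p = 0.0678). *Th*, the enzyme that starts catecholamine synthesis in nerves, had at most 2 counts in any library.

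On the alpha1 branch, edgeR called 1 of 10 genes, against 2.35% of all genes tested. The called gene was *Itpr2*, the inositol trisphosphate receptor of heart muscle. It stood at 22.7, 24.4 and 25.2 CPM in WT and 17.0, 18.3, 19.1 and 14.3 CPM in A178D hearts, without overlap. *Itpr2* had a log2 fold change of -0.49 (standard error 0.10, edgeR's adjusted p = 0.0279), and -0.41 without A178D heart 4. The call was lost without WT heart 3 (edgeR's adjusted p = 0.133), WT heart 4 (0.120) and A178D heart 1 (0.0884), and with the number of the heart as a block together with the length and GC trends removed (0.0684). DESeq2 called it as well and no other gene of the branch. *Dgkz* was the most abundant of the branch per length (16.7 CPM per kilobase, log2 fold change -0.16). An unadjusted p under 0.05 from edgeR was found in 2 of the 10 genes, against 16.7% of all genes tested. The genotypes did not overlap in 2 of the 10, both lower in A178D, against 16.1% of all genes in either direction. The median of the branch was -0.10, and -0.013 without A178D heart 4.

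**Figure D3:**
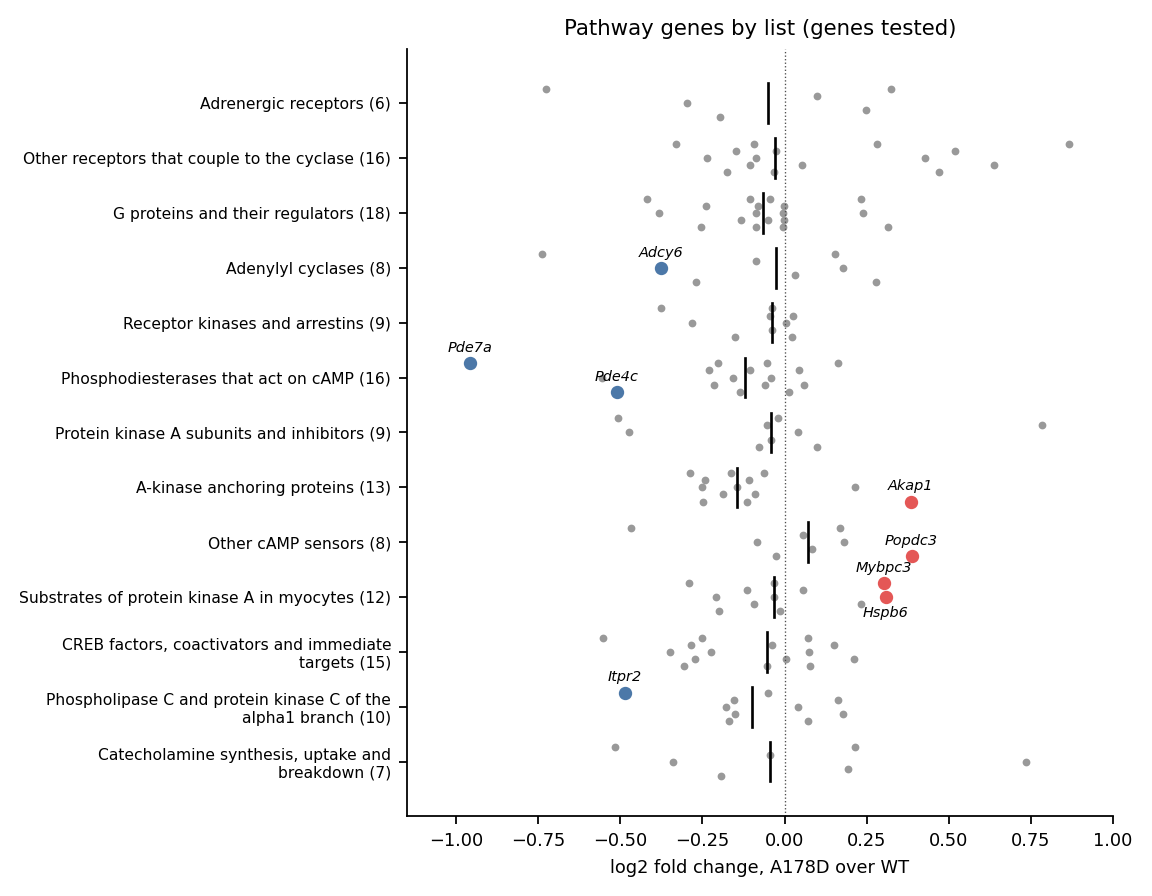
Log2 fold change of A178D over WT (horizontal axis) for the 147 tested pathway genes, 1 point per gene, by list with the number tested; red points were called higher and blue points lower at an adjusted p under 0.05, grey points were not called, and black bars are list medians. The medians lie between -0.14 and 0.07, and *Pde7a* has the lowest value at -0.96.

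**Figure D4:**
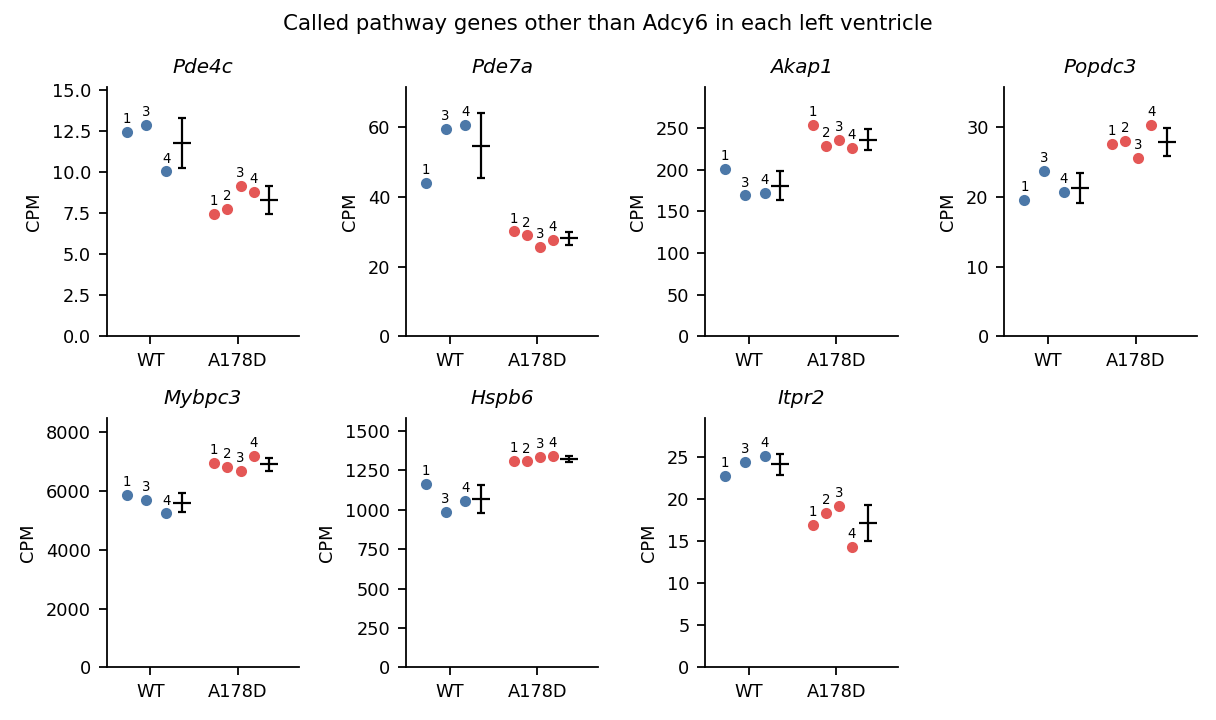
Level in CPM (vertical axes, from 0) of the 7 called pathway genes other than *Adcy6* in the 3 WT and 4 A178D left ventricles; each point is 1 heart with its number, and the bars give the mean and SD of the group. The genotypes do not overlap in any of the 7, as in *Pde7a* with 43.8 to 60.5 against 25.7 to 30.01 CPM.

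When cAMP is high, protein kinase A phosphorylates the factor CREB, which binds the cAMP response element and switches on early genes. Of 15 genes for CREB factors, coactivators and immediate targets, edgeR called 0, with an unadjusted p under 0.05 in 5 (33.3%, against 16.7% of all genes tested) and a median of -0.05 (-0.0066 without WT heart 1). DESeq2 called 2 lower, *Creb1* (34.3 ± 2.25 against 27.0 ± 3.36 CPM, SD, n = 3 and n = 4) and *Ppargc1a* (150.0 ± 13.3 against 121.2 ± 7.86 CPM), a coactivator of mitochondrial genes and the most abundant of the list per length. With the length and GC trends removed, the log2 fold change of *Creb1* went from -0.35 to -0.23. The hearts of the genotypes did not overlap in 5 of the 15 (33.3%), all lower in A178D, against 16.1% of all genes tested in either direction. The early target *Fos* stood at 1.76 to 5.02 CPM in WT and 1.19 to 4.02 CPM in A178D, and *Dusp1* at 46.0 to 58.8 and 35.9 to 65.0 CPM, so both were mixed between the genotypes. Since early genes are targets of CREB, promoter stretches that hold the response element or its core are printed here for *Dusp1*, *Fos* and *Ppargc1a*. Those of the receptor *Adrb1* and the kinase *Prkaca* that hold the core are printed with them. *Atf1*, *Nr4a1*, *Nr4a2*, *Nr4a3* and *Per1* also held the core, and their stretches are not printed.

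The 250 bases before the start of RefSeq genes (GRCm38.p6) were searched on both strands for the full element TGACGTCA and its core TGACG, which the full element contains and which reads CGTCA on the other strand. Of 32851 such windows, 1.55% hold the full element and 17.8% the core. The CREB list and the 9 genes above make 24 genes, of which 18 had a window, 10 held the core and 1, *Dusp1*, the full element. Among the 9, 6 had a window (*Adcy6*, *Adra1a* and *Pde3a* did not), and *Adrb1* and *Prkaca* held the core. A match is a description of these letters and says nothing of binding. Capitals mark the match nearest to the start in 10 bases of context on each side, which for *Prkaca* end with the window.
*Dusp1*, chr17:26508598-26508625, minus strand: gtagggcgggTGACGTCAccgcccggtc
*Fos*, chr12:85473814-85473838, plus strand: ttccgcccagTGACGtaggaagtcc
*Ppargc1a*, chr5:51567760-51567784, minus strand: tgccctcccaCGTCActgagctcca
*Adrb1*, chr19:56722017-56722041, plus strand: tgcgggagccTGACGcgcggccccg
*Prkaca*, chr8:83972962-83972977, plus strand: gctgcgggggCGTCAc
The full element of *Dusp1* begins 143 bases before its start. The others hold the core alone, which begins 66 bases before the start of *Fos*, 49 of *Ppargc1a*, 90 of *Adrb1* and 6 of *Prkaca*. None of these 5 genes was called by edgeR.

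The genes whose pattern over the 7 hearts was closest to that of *Adcy6* were *Appl2*, an adaptor protein of endosomes, *Rbm5*, a splicing factor, and *Fgd5*, an exchange factor of endothelial cells. They had the smallest root mean square differences in centred log2 CPM (0.0444, 0.0453 and 0.0496) among the 12211 tested genes that averaged 50 counts or more. The pattern of *Adcy6* itself had a root mean square of 0.205. *Appl2* and *Rbm5* stood at 87.0 ± 6.93 and 86.8 ± 4.40 CPM in WT and 68.5 ± 2.94 and 67.9 ± 5.34 CPM in A178D hearts.

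Some markers of other cells were called as well. Of 12 markers of smooth muscle and pericytes, edgeR called 6 lower (*Myh11*, *Cnn1*, *Acta2*, *Tagln*, *Lmod1* and *Mylk*), and all 12 were below 0 with a median log2 fold change of -0.43. Over all genes tested 2.35% were called. *Acta2* and *Tagln* were called in all 7 fits without 1 heart and *Myh11* in 5 (0.0501 without WT heart 3, 0.0547 without WT heart 4). *Mylk* was called in 2 of them (without A178D heart 3 or 4), *Lmod1* in 1 (without A178D heart 2) and *Cnn1* in 1 (without A178D heart 4), with adjusted p of up to 0.111, 0.142 and 0.109 in the others, and *Cnn1* was not called with the number of the heart as a block (0.0617). The 12 markers summed to 1564, 1561 and 1499 CPM in WT and 1171, 1290, 1366 and 1097 CPM in A178D hearts, with *Abcc9* the most abundant in CPM. Per kilobase of exon, *Acta2* (70.1) stood above *Abcc9* (67.7). Of 7 fibroblast markers 1, *Col3a1*, was called higher (0.62, edgeR's adjusted p = 0.0317). Its call was lost without WT heart 3 (0.113), A178D heart 1 (0.08405), A178D heart 2 (0.0672) and A178D heart 3 (0.0712), and its log2 fold change was 0.42 to 0.81 in the 7 fits without 1 heart. The sum of the markers was 1050 to 1161 CPM in WT and 1236 to 1365 in A178D, with *Col3a1* at a mean of 201 and 309 CPM and *Col1a1* at 82.3 and 112 CPM. *Col1a2* (0.26) and *Lum* (0.19) were also above in every A178D heart, while *Dcn*, the most abundant, had a log2 fold change of 0.0026, *Pdgfra* -0.06 and *Tcf21* 0.04. The median of the 7 was 0.19, the hearts did not overlap in 4 (57.1%, against 16.1% of all genes tested), and DESeq2 called 2, *Col3a1* and *Col1a1* (28.6%, against 5.06%). The atrial list had 1 call, *Nppa* (1.31), which led it and was not called without WT heart 3 (0.0860), WT heart 4 (0.0598) or A178D heart 1 (0.0555). The authors count *Nppa* in a foetal gene programme that they report as induced in A178D hearts, so its call is not a measure of atrial cells. *Myl4* (0.65, unadjusted p = 0.0134) was not called but was also higher in every A178D heart than in every WT heart, and *Sln* and *Myl7* were near 0 in both genotypes. The sum of the atrial list, nearly all from *Nppa*, was 111 to 251 CPM in WT and 324 to 591 in A178D. The part of these cells in the lower *Adcy6*, *Pde7a*, *Pde4c* and *Itpr2* and in the higher genes was not tested.

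The other lists had 0 calls by edgeR, and the gene that leads each is named by CPM. Per kilobase of exon the leaders were *Actc1* (cardiomyocytes), *Cdh5* (endothelium), *C1qa* (macrophages), *Dbh* (neurons), *S100b* (Schwann cells) and *Hba-a2* (erythrocytes). Cardiomyocyte markers, led by *Myh6*, had a median log2 fold change of 0.0027 and an unadjusted p under 0.05 in 2 of 8 (25.0%, against 16.7% of all genes). For endothelial markers, led by *Kdr*, these were -0.02 and 0 of 6. The 8 macrophage markers, led by *Csf1r*, were all above 0, with a median of 0.25. It was 0.14 without WT heart 1 and 0.16 with the length and GC trends removed. An unadjusted p under 0.05 was found in 3 (37.5%, against 16.7% of all genes), and DESeq2 called 1 (12.5%, against 5.06%). The sums of these lists were 203 to 266 CPM in WT and 248 to 280 CPM in A178D for macrophages, and 859.8 to 999.9 and 898 to 943 CPM for endothelium. Sympathetic neuron markers summed to 13.6 to 18.4 CPM in any heart, led by *Stmn2*, with *Th*, *Slc6a2* and *Snap25* under 1 CPM in every heart. Schwann cell markers summed to 5.37 to 13.6 CPM, led by *Mbp*, and adipocyte and skeletal muscle markers to at most 2.19 and 4.27 CPM. Erythrocyte genes summed to 93.9 to 154 CPM, led by *Hbb-bs*. DESeq2 and an unadjusted p under 0.05 also gave 0 genes in the endothelial, neuron, Schwann cell, skeletal muscle and erythrocyte lists. For the adipocyte list an unadjusted p under 0.05 gave 0, and DESeq2 gave none of its genes an adjusted p.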

How the data were processed

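Left ventricle RNA was read from both ends of stranded poly(A) libraries. The authors deposited raw counts per Ensembl gene, without normalization. The submitters' processing notes name bcl2fastq 2.18.0.12, HISAT2 2.1.0, SAMtools 1.6 and DESeq2 1.26.0 on GRCm38, and the counting program is not given in the sources used here. A second table of scaled counts was not used. Names, positions and exon lengths came from GENCODE M21. Of 21257 entries, 268 had no name there. Sets of entries with identical counts in every library and 30 or more counts in all (219 sets) were reduced to 1 entry, which removed 223, and 107 entries with fewer counts that repeated both identifier and counts were removed, which left 20927 genes. Among counts from 1 to 20, at most 20.3% in a library were odd, so fragments were apparently counted once per end, and low counts rest on fewer molecules.

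A178D was compared with WT by edgeR 4.0.16 in R 4.3.3 (TMM, quasi-likelihood test, a minimum of 10 counts in 3 or more libraries, Benjamini-Hochberg adjusted p under 0.05 over all 13894 genes). P-values and standard errors measure the spread between hearts, and depth adds counting error. Alternatives were DESeq2 1.42.0, its size factors in edgeR, other filters, a replicate block, halved counts, offsets for transcript length and GC content (mgcv 1.9.3), a stricter threshold, longest transcripts for lengths, and leaving out each library.

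The members and lists were chosen with earlier results of these data known. Named genes are the 9 members, pathway genes called by edgeR or DESeq2, the most abundant gene per length of each list, relatives of the members, untested adrenergic receptors, and the 3 genes closest in pattern to a called member. The pathway lists are those described in the text. Some genes are not reported here and were taken out of the lists, and of their counts, after the results were seen.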

Additional observations from a re-analysis of the deposited data

Results flagged for a closer look

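In the 4 A178D hearts, 2 of the named genes had a value far from the other 3. *Gnao1* was 28.9 CPM in A178D heart 3 and 31.1 to 31.4 CPM in the other hearts, a small gap between values that all lay above the WT hearts. *Adcy9* was 25.4 CPM in A178D heart 4 and 29.6 to 29.9 CPM in the other hearts. With 49 genes examined in this way, chance flags about 1 gene in 20.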

How the results depend on the processing

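*Pde7a* was called in every alternative fit, and *Adcy6* in every fit but 4 of those that left out 1 heart. At an adjusted p under 0.01, neither *Adcy6* nor another of the 9 genes passed (0), 24 genes were higher and 40 lower over the whole table, and of the pathway genes 0 were higher and 1 lower (*Pde7a*).

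DESeq2 called 290 genes higher and 375 lower over the whole table (145 and 182 with edgeR), and 12 pathway genes lower (4 with edgeR). With no filter on low counts, 7 pathway genes were lower. With the length and GC offsets 228 genes were higher and 277 lower, and 6 pathway genes lower. The causes were not tested. DESeq2's size factors, counts halved and 10 counts in every library kept all 8 pathway calls.

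WT and A178D hearts share the numbers 1, 3 and 4, but hearts with the same number did not deviate together (correlations 0.0031, -0.0402 and -0.0424). No heart correlated best with the heart of its own number. With the replicate number as a block, 124 genes were higher and 147 lower, 1 pathway gene was higher (*Akap1*) and 4 lower (*Adcy6*, *Pde7a*, *Itpr2* and *Akap13*, which took the place of *Pde4c*). The block with the offsets gave 2 higher (*Akap1* and *Mybpc3*) and 5 lower (*Adcy6*, *Pde7a*, *Maob*, *Ramp2* and *Ddc*).

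Without 1 heart, or without WT heart 1 and A178D heart 4 together (chosen after seeing the data), the genes called ranged from 22 to 353 higher and from 31 to 407 lower. The smallest counts came without WT heart 3 and the largest without both hearts. Of the 9 genes 0 to 2 passed, and of the pathway genes 0 to 6 were higher and 1 to 11 lower. The log2 fold changes of genes near 0 changed sign in some of these fits: *Adcy5* (-0.022 to 0.064), *Grk5* (-0.085 to 0.075), *Pde4d* (-0.17 to 0.023), *Prkaca* (-0.048 to 0.052), *Grk2* (-0.027 to 0.049), *Prkacb* (-0.13 to 0.0096) and *Pln* (-0.078 to 0.041). *Grk5* was also 0.030 with the offsets and 0.0079 with block and offsets. The fibroblast markers *Dcn*, *Pdgfra* and *Tcf21* also changed sign. Among the 49 named genes, the 8 other alternatives gave 361 values on the same side of the threshold, 18 newly past it, 9 no longer past it and 2 of opposite sign. The 8 fits that left out hearts gave 329, 11, 35 and 13.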
